A study of Mus musculus with 6 samples.

Results

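Genes of the T cell receptor complex and its signalling, 9 of the 11789 genes in the deposited table, were followed through RNA-seq of mouse lung macrophages. They were chosen by symbol, and all 9 were found: the receptor chains Cd3d, Cd3e and Cd3g, the co-receptors Cd4 and Cd8a, the co-stimulatory receptor Cd28, the kinase Lck, the adaptor Lat and the surface glycoprotein Thy1. The cells were labelled alveolar macrophages, the phagocytes that live in the air spaces of the lung, from C57BL/6 mice that had received an exposure abbreviated as BLM. The wild-type group held 3 libraries (table columns BLM1, BLM2 and BLM3). The A20 conditional knockout group held 3 more (A20-1, A20-3 and A20-4). All 6 came after the exposure, so no unexposed lung was compared. A20 is a ubiquitin-editing enzyme encoded by Tnfaip3 that restrains NF-kB signalling. The labels do not say which Cre driver removed it, from which cells or exons, nor the age of the mice, the dose or day of the exposure, whether animals were pooled, or how the macrophages were isolated. P-values therefore measure the spread between these libraries, part of which may be technical.

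A T cell recognises a peptide on an MHC molecule through its antigen receptor, whose variable chains have no signalling domain of their own. Signalling is carried by the invariant CD3 chains, with CD247 (the zeta chain). Lck, which the tails of CD4 or CD8 bind at the inner membrane, phosphorylates the tyrosine motifs of the CD3 and zeta chains. ZAP70 docks on these motifs and then phosphorylates LAT, on which the enzymes for calcium and Ras signalling assemble. CD4 marks T cells that read MHC class II, and CD8 those that read class I. Several members are not private to T cells: some dendritic cells carry CD8a or CD4, natural killer cells express Lck and Lat, and Thy1 is found on fibroblasts and innate lymphoid cells. The CD3 complex is typical of T cells, and which cells gave its RNA here was not tested.

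The 3 CD3 genes lie side by side on chromosome 9 (GRCm38), within 40056 bases. Cd3g and Cd3d are read away from each other, from starts 1355 bases apart. The DNA just upstream of each start is shown because these neighbours moved together between libraries, with the upstream DNA of Cd8a, which moved differently. Each line gives bases 250 to 21 before the RefSeq start (GRCm38.p6), 5′ to 3′ on the gene's strand. Capitals mark AGGAAG on either strand (CTTCCT when reversed), a sequence that ETS factors can bind, and CANNTG, the E-box, which reads the same on both strands.
Cd3g, chr9:44980452-44980681, minus strand: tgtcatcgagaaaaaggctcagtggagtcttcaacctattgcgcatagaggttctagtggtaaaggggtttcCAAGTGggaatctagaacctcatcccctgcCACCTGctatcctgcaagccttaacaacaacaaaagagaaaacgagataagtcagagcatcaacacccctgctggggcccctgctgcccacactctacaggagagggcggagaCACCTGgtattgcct
Cd3d, chr9:44981536-44981765, plus strand: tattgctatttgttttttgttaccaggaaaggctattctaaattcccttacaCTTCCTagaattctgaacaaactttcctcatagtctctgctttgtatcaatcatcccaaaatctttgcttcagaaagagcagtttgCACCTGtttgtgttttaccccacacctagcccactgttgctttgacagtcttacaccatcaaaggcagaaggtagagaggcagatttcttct
Cd3e, chr9:45009632-45009861, minus strand: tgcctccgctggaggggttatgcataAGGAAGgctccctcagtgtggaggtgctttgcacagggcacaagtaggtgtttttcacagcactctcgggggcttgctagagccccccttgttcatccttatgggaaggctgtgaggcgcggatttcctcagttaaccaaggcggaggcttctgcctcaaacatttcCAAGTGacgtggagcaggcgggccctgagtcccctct
Cd8a, chr6:71373177-71373406, plus strand: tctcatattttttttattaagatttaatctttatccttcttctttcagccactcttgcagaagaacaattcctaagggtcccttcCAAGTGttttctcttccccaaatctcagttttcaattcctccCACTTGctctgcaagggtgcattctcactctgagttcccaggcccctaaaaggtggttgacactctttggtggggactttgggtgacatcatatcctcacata

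The E-box letters occurred 3 times upstream of Cd3g, once each upstream of Cd3d and Cd3e, and 2 times upstream of Cd8a. At least 1 match was found in 63.5% of the 32851 mouse promoter windows of this length. AGGAAG occurred once upstream of Cd3d and of Cd3e and in 27.2% of all windows, and these letters were not in the Cd3g or Cd8a window. Such matches describe the sequence only. The RefSeq table had entries for 6 of the 9 members: these 4, Lck and Lat.

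Levels are given in FPKM, fragments per kilobase of transcript scaled to the mapped fragments of the library, so genes can be compared with each other per length. The read depth behind them is unknown. Alveolar macrophage genes were high in every library: the summed FPKM of the 19 listed was 7124 to 9484 in the knockout and 5150 to 8661 in the wild-type libraries. Library BLM3 stood apart, with correlations across genes of 0.886 to 0.925 with the other 5, which correlated with each other at 0.953 to 0.982. Results that rest on it are therefore given with and without it. Of these 19 genes 1, Marco, fell and 0 rose with 6 libraries, where 0.851% of all genes fell. Most of the 19 leaned the other way, with 16 positive and 3 negative differences and a median of 0.64. Of the 19, 10 were at an unadjusted p under 0.05 (limma), where 20.3% of all genes were. All knockout libraries lay above all wild-type ones for 8 of them and below for 1 (all genes: 1704 and 1398 of 10696). Without BLM3 4 rose and 1 fell, where 1.35% and 2.5% of all genes did, and the median was 0.19 (13 positive, 6 negative). With weights that count libraries that stand apart for less, 6 rose and 3 fell, where 8.81% and 9.27% of all genes did. Without BLM2 1 rose and 0 fell, where 16 and 76 of 10696 genes did. With a pseudocount of 0.1, as TPM, after quantile normalization, or without A20-1, A20-3, A20-4 or BLM1, 0 of the 19 were called. Values per library follow in the order A20-1, A20-3, A20-4 for the knockout and BLM1, BLM2, BLM3 for the wild type. Tnfaip3 itself was at 8.44, 12.9 and 6.80 FPKM in the knockout libraries and at 4.47, 2.18 and 21.6 in the wild type. The groups overlapped through BLM3 alone. Without BLM3 every library labelled knockout was above both wild-type ones (log2 difference 1.27 ± 0.31, SE, limma adjusted p = 0.0797), a direction that goes against loss of the transcript. The labels do not give the deleted exons, so the level over the whole gene does not check the label. Below, knockout stands for the libraries labelled so, and every direction is between libraries as labelled.

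The CD3 chains were readily measured in every library, and neither group was uniformly higher. Cd3e (ENSMUSG00000032093.7, chromosome 9, 44998740 to 45009627, minus strand), the chain that pairs with both of the other CD3 chains, had 14.4, 14.3 and 13.9 FPKM in the knockout libraries. In the wild type it had 15.4, 8.36 and 26.7. The knockout libraries were nearly equal and lay inside the wild-type range. Their mean was 14.2 ± 0.268 (SD, n = 3) against 16.8 ± 9.27 in the wild type, a difference of -0.09 ± 0.36 (SE) in log2(FPKM + 1), knockout minus wild type (limma adjusted p = 0.902).

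Cd3g (ENSMUSG00000002033.14, chromosome 9, 44969572 to 44980431, minus strand) encodes the gamma chain and had 17.5, 17.9 and 16.5 FPKM in the knockout libraries and 20.9, 12.4 and 39.2 in the wild type. Cd3d (ENSMUSG00000032094.8, chromosome 9, 44981786 to 44987339, plus strand) encodes the delta chain and had 14.5, 17.7 and 14.1 FPKM in the knockout and 24.2, 12.5 and 50.9 in the wild-type libraries. For both genes BLM2 was lowest, BLM3 highest, and the knockout libraries sat between BLM2 and BLM1. The log2 difference was -0.31 ± 0.37 (SE) for Cd3g and -0.67 ± 0.45 for Cd3d (limma adjusted p = 0.663 and 0.434). The 95% interval for Cd3d ran from -1.75 to 0.41, wide enough to hold differences of either sign. Without BLM3 the difference of Cd3d was -0.17, and without BLM2 it was -1.14.

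The co-receptors took different courses. Cd8a (ENSMUSG00000053977.13, chromosome 6, 71373427 to 71379173, plus strand), the alpha chain of CD8, had 23.5, 32.5 and 36.1 FPKM in the knockout libraries, and 12.5, 12.3 and 38.8 in the wild type. Every knockout library lay above BLM1 and BLM2, and BLM3 lay above all of them. With 6 libraries the log2 difference was 0.70 ± 0.44 (SE, limma adjusted p = 0.404). Without BLM3 it was 1.22 ± 0.18 (SE), and Cd8a then rose past the threshold in the libraries labelled knockout (limma adjusted p = 0.0273). With array weights, which let limma count libraries that stand apart for less, it was 1.20 (adjusted p = 0.0180), in a fit where 8.81% of all genes rose. Cd8b1, its partner chain from the list of T cell genes, had the same course, with 43.2, 54.9 and 62.7 FPKM in the knockout and 21.7, 13.1 and 75.8 in the wild-type libraries. It too was called without BLM3 (1.59, limma adjusted p = 0.0273) and not with it (0.89, adjusted p = 0.421).

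Cd4 (ENSMUSG00000023274.14, chromosome 6, 124864692 to 124888221, minus strand), the co-receptor for MHC class II, had 8.16, 6.69 and 5.33 FPKM in the knockout and 11.3, 5.54 and 10.3 in the wild-type libraries. It was the one member with its highest value in BLM1 and its lowest in a knockout library, A20-4. The log2 difference was -0.34 ± 0.27 (SE, limma adjusted p = 0.499), and -0.23 without BLM3 (adjusted p = 0.668). Cd4 divided by Cd8a within each library gave 0.348, 0.206 and 0.148 in the knockout libraries and 0.909, 0.450 and 0.265 in the wild type. A20-1 and BLM3 overlapped, so the ratio did not separate the groups.

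Lck (ENSMUSG00000000409.14, chromosome 4, 129548344 to 129573641, minus strand), the kinase that starts the cascade, had 32.8, 38.9 and 33.9 FPKM in the knockout and 28.6, 18.6 and 56.8 in the wild-type libraries. As with Cd8a, the knockout libraries lay above BLM1 and BLM2 and below BLM3. The log2 difference was 0.16 ± 0.37 (SE, limma adjusted p = 0.828), and 0.58 ± 0.19 without BLM3 (adjusted p = 0.131). Lat (ENSMUSG00000030742.7, chromosome 7, 126363824 to 126369570, minus strand), the scaffold phosphorylated by ZAP70, had 12.5, 17.8 and 15.8 FPKM in the knockout and 18.3, 11.3 and 33.7 in the wild-type libraries (log2 difference -0.32 ± 0.36, SE, limma adjusted p = 0.649). Its knockout values fell between BLM2 and BLM1, like those of Cd3d and Cd3g.

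Cd28 (ENSMUSG00000026012.2, chromosome 1, 60716800 to 60773359, plus strand), which binds CD80 and CD86 on antigen-presenting cells, was the lowest member per length. It had 3.92, 4.12 and 3.51 FPKM in the knockout and 4.23, 1.91 and 6.12 in the wild-type libraries (log2 difference 0.023 ± 0.31, SE, limma adjusted p = 0.973). Thy1 (ENSMUSG00000032011.5, chromosome 9, 44043384 to 44048579, plus strand), a surface marker of mouse T cells, was the highest member in all 6 libraries. It had 38.3, 47.7 and 48.4 FPKM in the knockout and 43.8, 30.5 and 69.3 in the wild-type libraries (log2 difference -0.023 ± 0.29, SE, limma adjusted p = 0.971). Both genes were again lowest in BLM2 and highest in BLM3, with the knockout libraries inside that range.

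**Figure D1:**
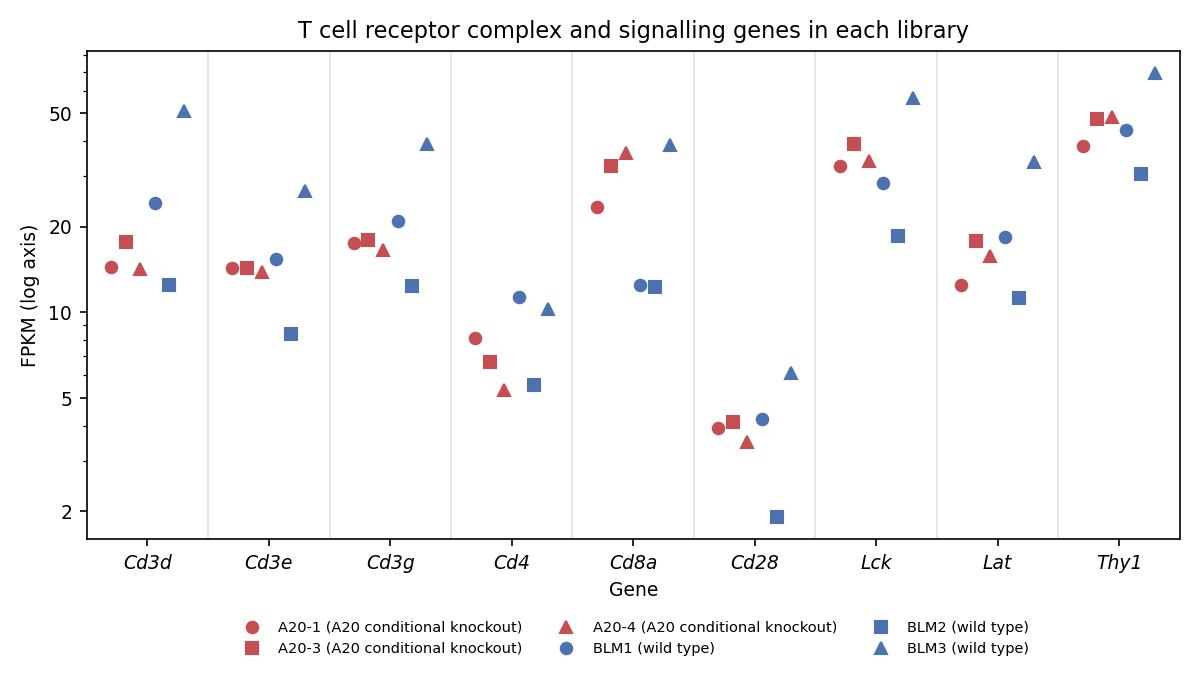
FPKM (log axis) of the 9 genes, 1 point per library, knockout in red and wild type in blue. BLM3 (blue triangle) is highest and BLM2 (blue square) lowest for 8 of 9 genes, Cd4 being the exception, and the red points of Cd8a lie above BLM1 and BLM2.

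Averaged over the 6 libraries, the levels ran from Thy1 (46.4 ± 13.1 FPKM, SD, n = 6) through Lck (34.9 ± 12.7), Cd8a (25.9 ± 11.7), Cd3d (22.3 ± 14.6), Cd3g (20.7 ± 9.44), Lat (18.2 ± 8.08) and Cd3e (15.5 ± 6.04) to Cd4 (7.89 ± 2.49) and Cd28 (3.97 ± 1.35). Neighbours from Thy1 down to Cd3e differed by less than their spread, while the steps from Cd3e to Cd4 and from Cd4 to Cd28 were larger than the SD of either gene. Mean Thy1 was at or above that of 91.2% of all 10696 genes tested, and Cd28 at or above 28.1%. In bulk RNA, fewer cells of a type and less RNA per cell cannot be told apart.

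For 8 of 9 members the highest value was in BLM3 and the lowest in BLM2, an order shown by 7.21% of all genes tested. Within the wild type, the highest library exceeded the lowest by a factor of 2.04 for Cd4 to 4.08 for Cd3d. Within the knockout group the factor was 1.03 for Cd3e to 1.54 for Cd8a. The wild-type range was the wider for 9 of 9 members, as it was for 61.1% of all genes. Summed over the 9 genes, the level was 165.5, 198 and 188 FPKM in the knockout and 179, 113 and 332 in the wild-type libraries.

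With all 6 libraries, 0 of 9 members passed the threshold (limma, adjusted p under 0.05), where 1.1% of all genes did, 0.252% rising and 0.851% falling. At an unadjusted p under 0.05 they were also 0 of 9, against 20.3% of all genes. Over all genes 27 rose and 91 fell, and 41 and 64 when values were rescaled to TPM. None of the 9 had groups that did not overlap, against 29.0% of all genes. The median difference of the members was -0.09, with 3 positive and 6 negative, beside 0.02 over all genes tested. Exact two-sided permutation tests of the FPKM values gave p from 0.3 for Cd4 to 1 for Lck, and 0.1 is the smallest p that 3 against 3 allows. Without BLM3 the median was 0.28, 7 were positive, and 1 of 9, Cd8a, rose, where 1.35% of all genes rose and 2.5% fell (3.84% in either direction). With 6 libraries the 95% interval of the Cd3e difference (limma) ran from -0.96 to 0.77, so a missed threshold does not show equal levels.

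**Figure D2:**
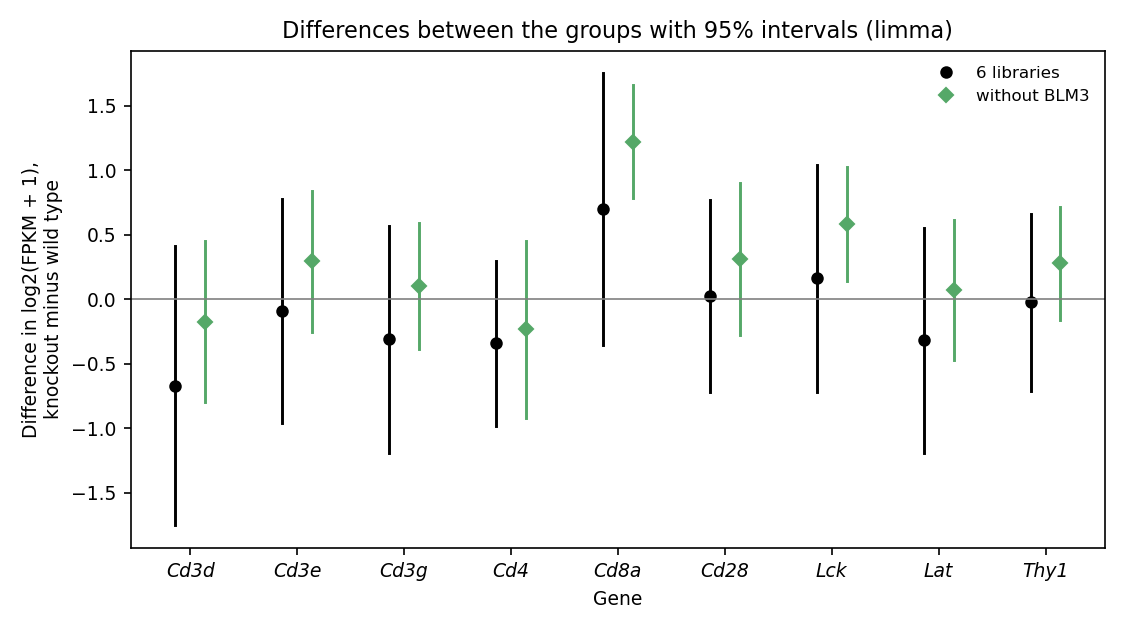
Difference in log2(FPKM + 1), knockout minus wild type, for each gene with its 95% interval from limma, for 6 libraries (black) and without BLM3 (green). All black intervals include 0, and without BLM3 the intervals of Cd8a (0.78 to 1.66) and Lck (0.14 to 1.03) lie above it, of which only Cd8a passed adjustment over all genes.

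Dividing each gene by Cd3e sets it against the complex in the same library. This view was chosen after the values had been seen and is a description only. The wild-type values of Cd3e ranged by a factor of 3.20, and dividing gives this spread to genes that did not share its course. The shares of all genes given with the ratios are therefore not a like benchmark for T cell genes. Cd3d over Cd3e was 1.01, 1.24 and 1.02 in the knockout and 1.57, 1.49 and 1.90 in the wild-type libraries. Cd3g over Cd3e was 1.22, 1.25 and 1.19 against 1.35, 1.48 and 1.47. For both, all knockout libraries lay below all wild-type ones, as they did for 4.52% of all genes divided in the same way. Cd3d over Cd3g was 0.826, 0.987 and 0.855 in the knockout libraries and 1.16, 1.01 and 1.30 in the wild type. A20-3 and BLM2 were close to each other and to equal levels, and the share of other gene pairs with such an order was not computed.

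Cd8a over Cd3e was 1.63, 2.27 and 2.60 in the knockout and 0.808, 1.47 and 1.45 in the wild-type libraries. On this scale BLM3 no longer lay above the knockout libraries, and the groups did not overlap. Lck over Cd3e did not overlap either, at 2.28, 2.71 and 2.44 against 1.85, 2.23 and 2.12, though A20-1 and BLM2 were close. Such an order, with the knockout higher, held for 1.35% of all genes. In all, 4 of 8 ratios separated the groups, and the ratios of Cd4, Lat, Cd28 and Thy1 overlapped. Of all genes, 5.86% separated in either direction after the division and 29.0% before it. The lower share is not a like benchmark for genes that share the course of Cd3e, so no enrichment is read from it. All ratios share 1 denominator, so they are not independent of each other.

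**Figure D3:**
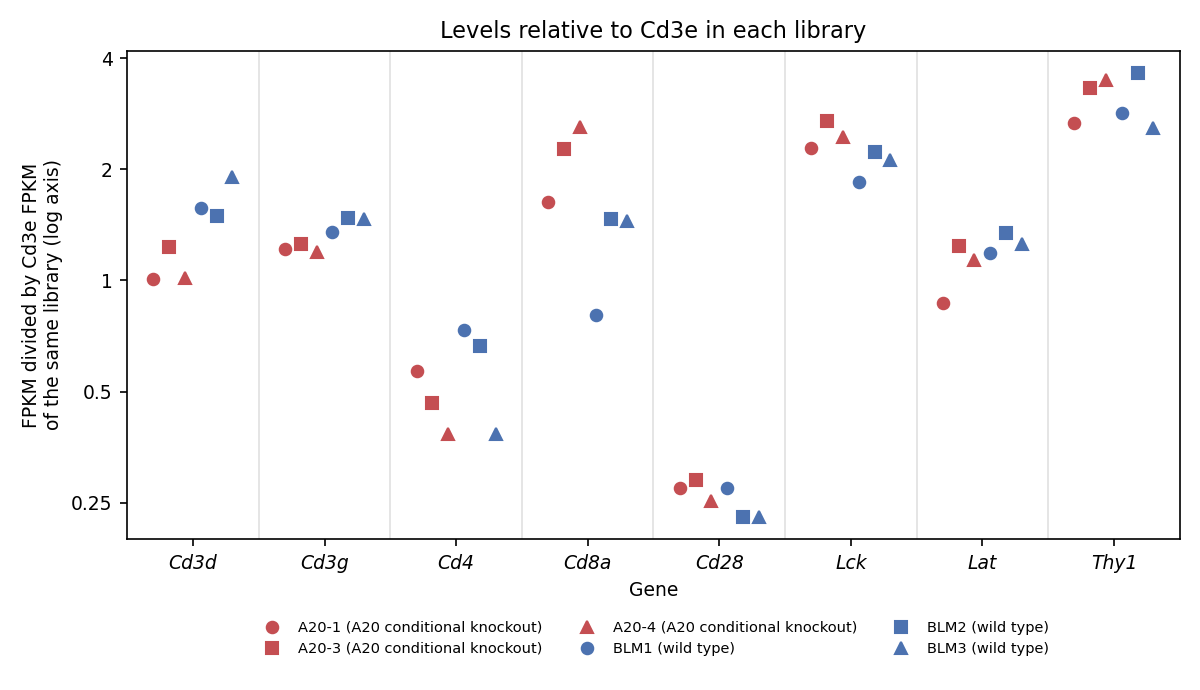
FPKM of each gene divided by Cd3e FPKM of the same library (log axis), 1 point per library. Red (knockout) and blue (wild type) points separate for Cd3d and Cd3g, where the wild type is higher, and for Cd8a and Lck, where the knockout is higher.

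Other genes of the T cell lineage also varied by library. Of 28 listed, all were in the table and 27 were tested: 0 rose and 0 fell with 6 libraries (2 at an unadjusted p under 0.05), 8 differences were positive and 19 negative, and the median was -0.36. BLM3 was highest for 23 of the 28. The smallest p belonged to the homing receptor Ccr7 (26.3 ± 3.66 FPKM in the knockout and 43.7 ± 13.0 in the wild type, limma adjusted p = 0.175), the adhesion receptor Cd2 (92.2 ± 9.17 and 65.5 ± 12.5, adjusted p = 0.175) and the IL-2 receptor chain Il2ra (2.30 ± 0.416 and 3.86 ± 1.69, adjusted p = 0.297; SD, n = 3). Without BLM3 2 rose, Cd8b1 and the IL-2 receptor beta chain Il2rb (1.15, limma adjusted p = 0.0161), and the median was 0.036.

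Divided by Cd3e, 4 of 27 lineage genes were higher in every knockout library and 10 lower, where 1.35% and 4.52% of all genes were. These shares are not a like benchmark, since most lineage genes peaked in BLM3 as Cd3e did. Undivided, 1 of the 27 was higher in every knockout library and 2 lower, where 29.0% of all genes did not overlap in either direction. The 4 were Cd8b1, Il2rb, the thymocyte signalling gene Themis and the phosphatase gene Ubash3a. Cd8b1 over Cd3e was 3.01, 3.83 and 4.52 against 1.41, 1.57 and 2.84. The 10 included the zeta chain Cd247, the T cell transcription factors Tcf7 and Lef1, the IL-7 receptor Il7r and the co-stimulatory receptors Cd27 and Icos. Tcf7 over Cd3e was 2.14, 2.21 and 1.39 in the knockout and 3.78, 2.52 and 3.66 in the wild-type libraries. These genes were named after their values had been seen.

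Fixed partners of the receptor were Ptprc, Zap70, Cd247 and Lcp2. Zap70, the kinase that docks on the CD3 chains, had 7.73, 8.24 and 7.75 FPKM in the knockout and 11.1, 6.55 and 23.9 in the wild-type libraries, and Cd247 had 3.96, 5.34 and 3.89 against 6.86, 3.19 and 11.8. Both followed the CD3 order, with BLM2 lowest and BLM3 highest. Ptprc (CD45), a phosphatase on all leukocytes, and Lcp2 (SLP-76), an adaptor that macrophages also use, had other orders. Ptprc had 58.2, 47.5 and 59.2 FPKM against 39.7, 32.5 and 44.9, higher in every knockout library, and Lcp2 had 49.7, 40.3 and 36.4 against 37.9, 41.8 and 49.8, with overlap. None of these 4 passed the threshold (limma adjusted p from 0.162 for Ptprc to 0.911 for Lcp2).

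Signalling genes that T cells share with macrophages were listed in 2 groups. Of 24 proximal genes 0 were called (4 at an unadjusted p under 0.05), 12 differences were positive and 12 negative, and the median was -0.00080. The ubiquitin ligase Cbl (24.4 ± 1.79 FPKM in the knockout and 17.2 ± 1.63 in the wild type), the kinase Syk (61.8 ± 4.32 and 46.9 ± 0.206) and the adaptor Pag1 (30.6 ± 3.44 and 19.99 ± 4.05) had the smallest p (limma adjusted p = 0.103, 0.109 and 0.137; SD, n = 3). Of 23 downstream genes 0 were called (8 at an unadjusted p under 0.05), 14 were positive and the median was 0.13. The calcium sensor Stim1, the kinase subunit Pik3r1 and the exchange factor Sos1 had the smallest p there, with log2 differences of 0.54, 0.37 and 0.32 (limma adjusted p = 0.114, 0.148 and 0.162). Without BLM3 0 of either list were called.

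Genes by which antigen-presenting cells address T cells were also listed, 15 of 18 in the table. None was called (limma; 6 at an unadjusted p under 0.05), and the median was -0.18. The MHC class II genes had the smallest p. Cd74, the invariant chain, had 1754 ± 136.5 FPKM in the knockout and 974 ± 206 in the wild type (limma adjusted p = 0.0829), H2-Ab1 808 ± 82.2 and 499 ± 94.0 (adjusted p = 0.104), and H2-Eb1 898 ± 64.8 and 605 ± 102 (adjusted p = 0.121; SD, n = 3).

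Markers of other cells varied between the same libraries. Of 14 B cell genes in the table, none at 0 in any library, the summed level was 76.5, 56.7 and 63.8 FPKM in the knockout and 194, 67.5 and 185 in the wild-type libraries. BLM1 and BLM3, the wild-type libraries with more CD3 signal, were thus also those with more B cell signal. Cd79a, a chain of the B cell receptor, had 36.7 and 34.4 FPKM there and 4.43 to 8.54 elsewhere, a gene named after its values were seen. Of 12 tested, 0 were called (2 at an unadjusted p under 0.05), with 11 negative differences and a median of -0.87. Cd37, Blk and Bank1 had the smallest p (log2 differences -0.86, -1.81 and -0.84, limma adjusted p = 0.116, 0.140 and 0.262). Without BLM2, the wild-type library whose sum lay within the knockout range, 7 of the 12 fell, where 76 of 10696 genes did. Leaving out any other library gave 0.

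Neutrophil genes, 10 of 14 in the table, summed to 89.0 to 118.1 FPKM in the knockout libraries, to 138 and 135 in BLM1 and BLM2 and to 2865 in BLM3. Of 9 tested, 0 were called by limma (2 at an unadjusted p under 0.05), with 1 positive and 8 negative differences. All knockout libraries lay below all wild-type ones for 5 of them and above for 0 (all genes: 1398 and 1704 of 10696). Without BLM3 S100a8 fell (-1.25, limma adjusted p = 0.0185) and Ltf rose (1.25, adjusted p = 0.0471), where 2.5% and 1.35% of all genes did. The differences were then 4 positive and 5 negative. Ly6g, named after its values were seen, was at 0 in 4 libraries and at 2.25 FPKM in BLM3. The library with the highest T cell signal was therefore also the one with the highest neutrophil signal and the lowest summed alveolar macrophage signal. Dendritic cell genes, 15 of 16 in the table, summed to 164 to 187 FPKM in the knockout and 255 to 305 in the wild type, and did not follow the order of the CD3 genes. Bst2 alone gave 159.5 of the 255 FPKM in BLM3. Others, such as Ccl22 (12.5 FPKM) and Flt3 (2.39), were lowest in BLM3. These 3 genes were named after their values were seen. The sums therefore do not show a higher dendritic cell signal in every wild-type library. Of 14 tested, 0 were called by limma (4 at an unadjusted p under 0.05), with 1 positive and 13 negative differences and a median of -0.39. Without BLM3 6 fell, where 2.5% of all genes did, all 14 differences were negative and the median was -0.72. The part of these cells in the levels of the members was not tested.

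Cytotoxic and natural killer cell genes, all 16 in the table, summed to 238, 280 and 252 FPKM in the knockout and 211, 189 and 409 in the wild-type libraries, the order seen for Lck and Cd8a. Of 15 tested, 2 rose in the libraries labelled knockout and 0 fell, the 2 being the inhibitory receptor Klrc1 and the death ligand Fasl, where 0.252% of all genes rose. Klrc1 had 10.7, 14.4 and 10.5 FPKM in the knockout and 4.73, 4.12 and 3.54 in the wild-type libraries (log2 difference 1.32 ± 0.16, SE, limma adjusted p = 0.0261). Fasl had 5.04, 6.07 and 6.71 against 2.81, 1.95 and 2.42 (1.03 ± 0.15, SE, adjusted p = 0.0373). Unlike Cd8a and Lck, both were low in BLM3 and did not overlap between the groups. Both rose without BLM3 as well (limma adjusted p = 0.0206 and 0.0318), but neither was called without any single one of the other 5 libraries. Without BLM3 3 of the 15 rose, where 1.35% of all genes did. The third was Nkg7 (log2 difference 0.73, limma adjusted p = 0.0274), which was highest in BLM3 and not called with 6 libraries (adjusted p = 0.589). With 6 libraries the receptor Klrk1 had the next smallest p (6.16 ± 0.779 and 3.56 ± 0.718 FPKM, SD, n = 3, limma adjusted p = 0.0959).

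**Figure D4:**
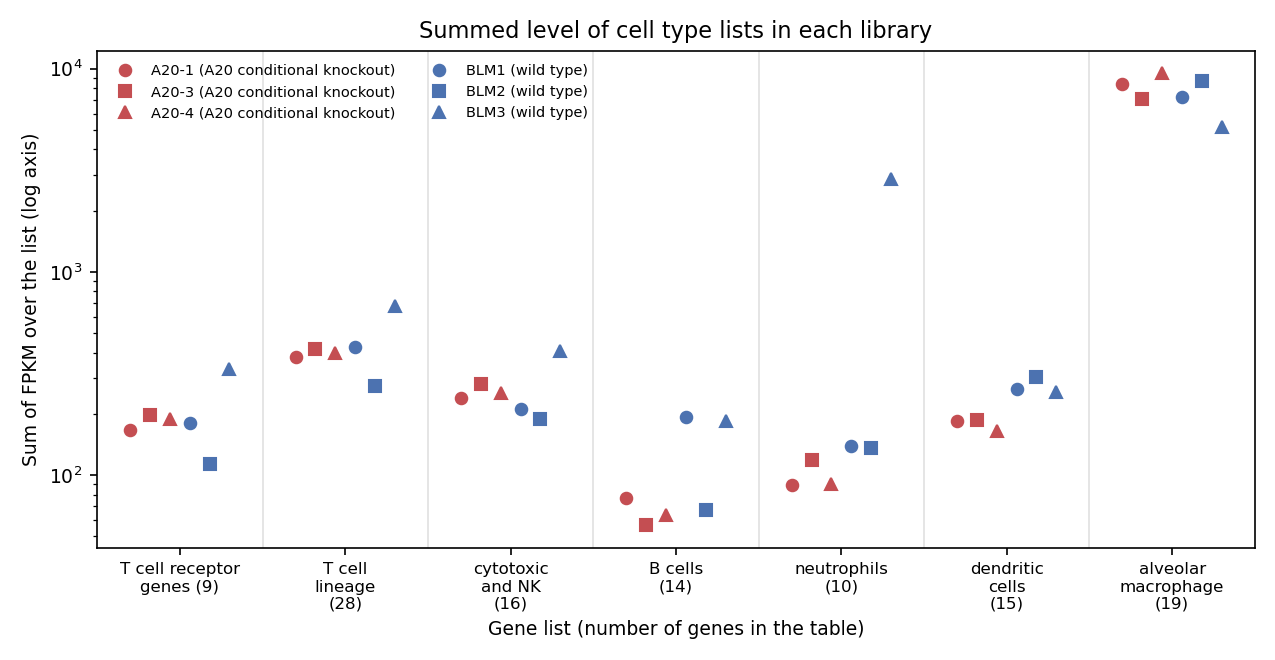
Summed FPKM (log axis) of the 9 T cell receptor genes and of 6 cell type lists, 1 point per library, with the number of genes in brackets. BLM3 is highest for the T cell, cytotoxic and neutrophil lists, BLM1 and BLM3 stand above the rest for B cells, and BLM3 is lowest for alveolar macrophage genes.

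The pattern of the CD3 chains over the 6 libraries (the mean of their log2 levels) was compared with that of every gene tested. Among members outside the complex, Lat (Pearson r = 0.965), Cd28 (0.908) and Thy1 (0.905) were closest, followed by Lck (0.857) and Cd4 (0.738), and Cd8a was least alike (0.478). Without BLM3 the values were 0.850 for Lat, 0.929 for Cd28, 0.738 for Thy1, 0.668 for Lck, 0.783 for Cd4 and 0.136 for Cd8a. The 6 genes most like the CD3 chains, members apart, were Cep97 (r = 0.999), Ripor2 (0.996), Tmem243 (0.993), Fam169b (0.992), Bach2 (0.992) and Hdac7 (0.991). Ripor2, for example, had 3.18, 3.69 and 3.06 FPKM in the knockout and 4.71, 1.79 and 9.41 in the wild-type libraries. With 6 points and 1 extreme library, high r is common: 430 of 10696 genes (4.02%) reached 0.9, and 152 (1.42%) did so without BLM3.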

How the data were processed

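The authors deposited 1 table of FPKM values per gene and library, per the file headers, with GRCm38 as the build, per the submitters' processing notes; for aligner, quantifier, annotation release and strand the sources used here give nothing. It lists 11789 protein-coding genes, and the lowest mean in the higher group was 0.5001 FPKM. Columns named A20 were taken as knockout and those named only BLM as wild type, since the labels hold 2 groups. Library sums ran from 266094 to 294525 FPKM. Low values showed no steps of whole reads (116 distinct ratios among 118 genes under 0.3 FPKM in A20-1 and A20-3), so depth is unknown.

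The 10696 genes whose mean reached 1 FPKM were tested on log2(FPKM + 1), a pseudocount of 1, with limma 3.58.1 in R 4.3.3 (lmFit, eBayes with trend), two-sided, Benjamini-Hochberg adjusted across every gene in the fit, at a threshold of 0.05. This scale understates changes of low genes. "Rose" and "fell" are used of genes past the threshold. Single genes also had an exact permutation test of FPKM. The members and lists were chosen with earlier results of these data known. Named genes are the members, fixed partners of the receptor, of each other list the genes past the threshold (at most 8) or the 3 with the smallest p, and the 6 most like the CD3 chains; in the lists of macrophages, neutrophils, dendritic cells and other non-lymphoid cells only genes past the threshold are named by this rule. Genes chosen after seeing values are marked. Some genes covered by this rule are not reported here. In the list of monocytes and recruited macrophages C1qa, C1qb and C1qc were among the genes that fell; in those of fibroblasts and endothelium, platelets and mast cells, and lung epithelium 0 were called (limma; 2, 2 and 7 at an unadjusted p under 0.05). Alternatives were other pseudocounts, minimum levels, scalings and weights, and leaving out each library.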

Additional observations from a re-analysis of the deposited data

How the results depend on the processing

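Over 125 recomputed member differences, 111 kept their sign and their side of the threshold, 12 changed sign and 2 became calls. The members called were 1 (Cd8a, 1.20) with array weights, which weigh down libraries that stand apart, and 0 to 1 when a library was left out. Leaving out single libraries gave -1.14 to -0.17 for Cd3d, -0.49 to 0.29 for Cd3e, -0.69 to 0.10 for Cd3g, 0.43 to 1.22 for Cd8a, -0.63 to -0.17 for Cd4, -0.20 to 0.58 for Lck, -0.68 to 0.071 for Lat, -0.33 to 0.31 for Cd28 and -0.30 to 0.28 for Thy1. The upper end was without BLM3, for Cd4 without BLM1, and the lower without BLM2. Cd28 was -0.012 with a pseudocount of 5 and -0.050 with array weights, and Thy1 was 0.061 as TPM and 0.070 with array weights. Over all genes, 118 calls became 75 with a minimum mean FPKM of 5 (6923 genes tested), 1934 with array weights, and 0 to 411 without single libraries. The 0 came without A20-3 (limma; 1694 at an unadjusted p under 0.05) and the 411 without BLM3. As TPM the calls were 41 rises and 64 falls, against 27 and 91. Of 182 list counts, 147 stayed within 1.5 times, 20 were higher (12 with array weights, 6 without BLM3) and 15 lower. The cause of these changes was not tested. No paired analysis was possible because the table's column names do not carry the replicate numbers of the sample titles.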
